A study of Mus musculus with 6 samples.

Results

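Genes for the Golgi enzymes that branch, extend and cap glycans were followed in mouse T cells cultured under Th17 conditions with pemafibrate or vehicle. The genes were chosen by name alone: every row of the deposited gene table whose symbol starts with B3galt, B3gnt, B4galt, B4galnt, Galnt, Gcnt, Mgat, Fut, St3gal, St6gal, St6galnac or St8sia followed by a digit. This gave 85 of 24421 rows in 12 families. In RefSeq 83 of them are protein-coding genes, 1 is a transcribed pseudogene (Fut4-ps1) and 1 is a long noncoding RNA (St8sia3os).

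The cells were wild-type (WT) primary naive CD4 T cells taken from mouse spleen and polarized in culture to Th17 cells, which secrete interleukin 17, in IMDM with 10% serum. In the pemafibrate group they received 10 nM pemafibrate, an agonist of the nuclear receptor PPARalpha, until day 2, and all cultures were then kept for 2 further days. There were 3 samples in each group, called vehicle 3, 4 and 7 and pemafibrate 3, 7 and 8 after the numbers in their titles. The labels do not name the vehicle, the strain, the age or the sex of the animals, and give no separate animal or culture for each sample. The p-values therefore rest on the spread among these samples alone, and that spread may be technical.

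Most proteins on the T cell surface carry glycans that are built in the endoplasmic reticulum and the Golgi. N-glycans are attached to asparagine and branched by the MGAT enzymes, and O-glycans are started on serine or threonine by the GALNT enzymes and branched by the GCNT enzymes. Galactosyltransferases and N-acetylglucosaminyltransferases lengthen the branches, and fucosyltransferases and sialyltransferases cap them. In T cells such structures are known to form the ligands of selectins, to set the binding of galectins and to influence how T cell receptors cluster.

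Values are RPKM, reads scaled by gene length and by library size, so levels of different genes can be compared. The libraries held 14935351 to 18322467 reads, at which 1 read in a gene of 2000 bases is worth at most 0.0335 RPKM. CD4 T cell markers were high in all samples (summed 1218 to 1256 RPKM in vehicle and 1200 to 1252 RPKM in pemafibrate for 6 of 9 listed genes). Summed markers of other cell types overlapped between vehicle and pemafibrate: 9.39 to 12.2 and 7.92 to 13.9 RPKM for macrophages or monocytes, 5.98 to 6.63 and 6.05 to 7.08 RPKM for B cells, and 4.91 to 6.74 and 5.65 to 7.08 RPKM for CD8 T cells. Neutrophil markers summed to 0.857 to 4.28 and 0.345 to 5.59 RPKM, and those of dendritic cells, erythroid cells and platelets to at most 1.66 RPKM in any sample, again with overlap. NK cell markers summed to 7.08 to 7.85 in vehicle and 5.92 to 6.49 RPKM in pemafibrate, without overlap. Among the 5 NK genes Klre1 went from 3.90 to 2.70 RPKM (log2 difference -0.46, adjusted p = 0.0636 by limma), Nkg7 from 2.77 to 2.66 and Klrk1 from 0.691 to 0.813 RPKM, and Ncr1 and Klrb1c were near 0. The part of these genes in the results below was not tested. RNA was measured in bulk, so fewer cells that express a gene and less RNA per cell cannot be told apart.

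The sequences shown first are those upstream of the pair of genes that a test called lower after pemafibrate, B4galnt4 and Gcnt2, because transcription of these genes starts there. Each line gives the 250 bases before a start annotated by RefSeq (GRCm38.p6), plus strand, 5′ to 3′, with matches to the searched motifs in capitals. B4galnt4 has 1 such window, at chr7:141060728-141060977. Gcnt2 has 3, at chr13:40859518-40859767, chr13:40886508-40886757 and chr13:40917384-40917633, since its transcripts begin at alternative first exons.
B4galnt4 start 1: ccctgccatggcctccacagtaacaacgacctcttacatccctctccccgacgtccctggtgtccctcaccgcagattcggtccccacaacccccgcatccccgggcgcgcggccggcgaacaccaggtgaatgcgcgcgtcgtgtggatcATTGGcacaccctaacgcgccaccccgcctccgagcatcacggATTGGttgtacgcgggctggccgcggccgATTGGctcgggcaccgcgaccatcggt
Gcnt2 start 1: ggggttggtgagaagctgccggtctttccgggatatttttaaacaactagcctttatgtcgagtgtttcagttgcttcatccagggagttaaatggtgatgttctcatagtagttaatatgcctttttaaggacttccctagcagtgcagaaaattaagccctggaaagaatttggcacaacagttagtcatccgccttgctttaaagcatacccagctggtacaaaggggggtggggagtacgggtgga
Gcnt2 start 2: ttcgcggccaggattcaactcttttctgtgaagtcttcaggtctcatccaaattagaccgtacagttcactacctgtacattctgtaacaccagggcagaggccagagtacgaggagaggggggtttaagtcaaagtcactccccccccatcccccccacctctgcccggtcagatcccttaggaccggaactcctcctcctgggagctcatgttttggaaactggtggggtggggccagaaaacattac
Gcnt2 start 3: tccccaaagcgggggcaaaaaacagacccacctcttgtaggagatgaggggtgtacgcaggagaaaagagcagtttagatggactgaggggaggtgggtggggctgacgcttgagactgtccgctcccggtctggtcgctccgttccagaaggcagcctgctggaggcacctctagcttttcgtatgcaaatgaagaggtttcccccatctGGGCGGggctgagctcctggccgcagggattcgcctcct

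The B4galnt4 window was rich in CpG, with 30 CpG pairs and 67.6% GC, against medians of 6 pairs and 52.4% over 32851 windows of the same length. It held ATTGG, the reverse complement of CCAAT, 3 times, starting 99, 56 and 27 bases before the transcription start. At least 1 CCAAT on either strand was present in 33.8% of all windows, at least 3 in 2.79%, and at least 30 CpG pairs in 5.94%. CCAAT was added to the search after the B4galnt4 window had been read. The Gcnt2 windows held 5, 6 and 11 CpG pairs, and the single match in them was GGGCGG (the GC box, in 32.7% of windows), in the third. The other letters searched on both strands were the nuclear receptor half-site AGGTCA (14% of windows), its direct repeat with 1 base between (0.0335%), TGANTCA (6.75%), CACGTG (6.02%), TATAAA (12.4%) and TGACGTCA (1.55%), which says only that they are not in these 4 windows.

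Of the 85 rows, 14 were at 0 in every sample, 21 were above 0 with a mean under 0.5 RPKM, and 50 had a mean of at least 0.5 RPKM and were tested. The cells expressed a core set of these enzymes strongly: 11 of the 50 were above 20 RPKM, 18 lay between 5 and 20 RPKM and 21 were below 5 RPKM. The highest was B4galt1, the main enzyme that adds galactose to N-acetylglucosamine, at a mean of 99.4 RPKM. It was followed by B4galnt1, the GM2 and GD2 ganglioside synthase (51.2 RPKM), by the O-glycan initiators Galnt1 (45.3), Galnt6 (45.0) and Galnt2 (37.5), and by the N-glycan branching genes Mgat2 (35.8) and Mgat1 (33.5). Over the 6 samples the ranges of B4galnt1 and Galnt1, of Galnt1 and Galnt6, of Galnt2 and Mgat2, and of Mgat2 and Mgat1 overlap. Compared within each sample, B4galt1 lay above B4galnt1, Galnt6 above Galnt2, Galnt2 above Mgat2 and Mgat2 above Mgat1 every time. The last gap was smallest in pemafibrate 3, at 34.07 and 34.01 RPKM. The order of B4galnt1 and Galnt1, and that of Galnt1 and Galnt6, changed between samples. Summed over all 85 rows the level was 695, 696 and 696 RPKM in vehicle 3, 4 and 7 and 699, 700 and 699 RPKM in pemafibrate 3, 7 and 8.

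**Figure D1:**
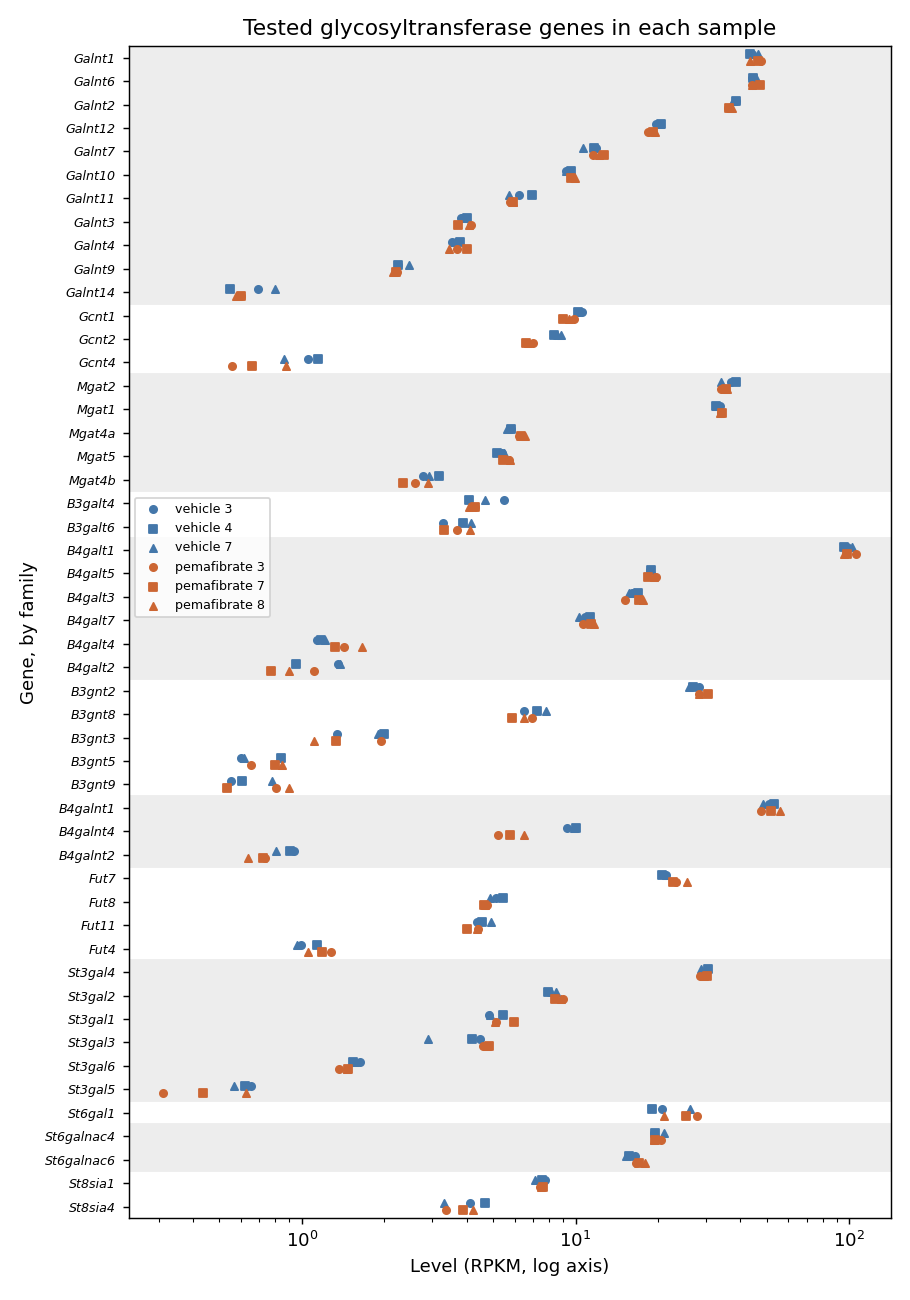
Level of each of the 50 tested genes (vertical axis, grouped by family with alternating shading) in RPKM on a log axis (horizontal), with vehicle samples in blue and pemafibrate samples in orange, 1 symbol per sample. Most genes have overlapping blue and orange symbols, and the widest gap between the groups is that of B4galnt4, with vehicle at 9.32 to 10.1 RPKM and pemafibrate at 5.20 to 6.49 RPKM.

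The 14 rows at 0 were Fut1, Fut9, Fut4-ps1, Galnt5, Galnt15, Galnt18, Mgat4c, Mgat4d, Mgat5b, St6gal2, St6galnac5, St8sia2, St8sia5 and St8sia3os. The 21 below 0.5 RPKM were B3galt1, B3galt2, B3galt5, B3gnt4, B3gnt6, B3gnt7, B4galnt3, B4galt6, Fut2, Fut10, Galnt13, Galnt16, Gcnt3, Gcnt7, Mgat3, Mgat4e, St6galnac1, St6galnac2, St6galnac3, St8sia3 and St8sia6. Mgat3, whose product adds the bisecting residue to N-glycans, had a single read in the 6 libraries, in pemafibrate 8. B4galnt3, the closest relative of B4galnt4, was covered by 1, 0 and 4 reads in the vehicle samples (3, 4 and 7) and by 1, 3 and 3 in the pemafibrate samples (3, 7 and 8). At these read numbers a difference between the groups was not detectable.

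The comparison of pemafibrate with vehicle asked which genes differ after treatment under Th17 conditions. B4galnt4 was about 40.3% lower by the group means and passed the threshold in the reported analysis and in 9 of 15 alternatives. A second gene, Gcnt2, was 20.7% lower by the group means, with every pemafibrate sample below every vehicle sample, but passed the threshold only by some methods. Limma found no difference past the threshold for the other tested members. Limma on log2(RPKM + 0.5), with Benjamini-Hochberg adjustment over all 11360 tested genes and a threshold of 0.05, called 1 of 50 members, which was lower. Over all tested genes it called 0.352%, and 0.22% as lower. With voom on whole reads recovered from the RPKM values, 2 of 57 members with a mean of at least 10 reads were called, both lower, against 1.25% of all genes called and 0.784% called lower. The authors' deposited table also has 2 of the members, B4galnt4 and Gcnt2, at an adjusted p under 0.05, against 1.73% of the genes above 0.

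Smaller differences went in both directions. An unadjusted limma p under 0.05 was held by 6 of 50 members, 3 higher and 3 lower, against 9.67% of all genes, 4.76% higher and 4.9% lower. The 3 samples of one group lay wholly above the 3 of the other in 16 of the 50 members, 7 higher and 9 lower in pemafibrate. That is a larger share than over all tested genes (15%, with 7.67% higher and 7.31% lower), and the difference in share was not tested. The median log2 difference of the 50 members was 0.0084, and that of all tested genes was 0.0052. For 32 of the 50 (64%) the 95% confidence interval of the difference lay within 1.25-fold in either direction, against 72.9% of all tested genes. The members' spread within groups, a median SD of 0.069 on the log2 scale, was close to that of all tested genes (0.080).

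**Figure D2:**
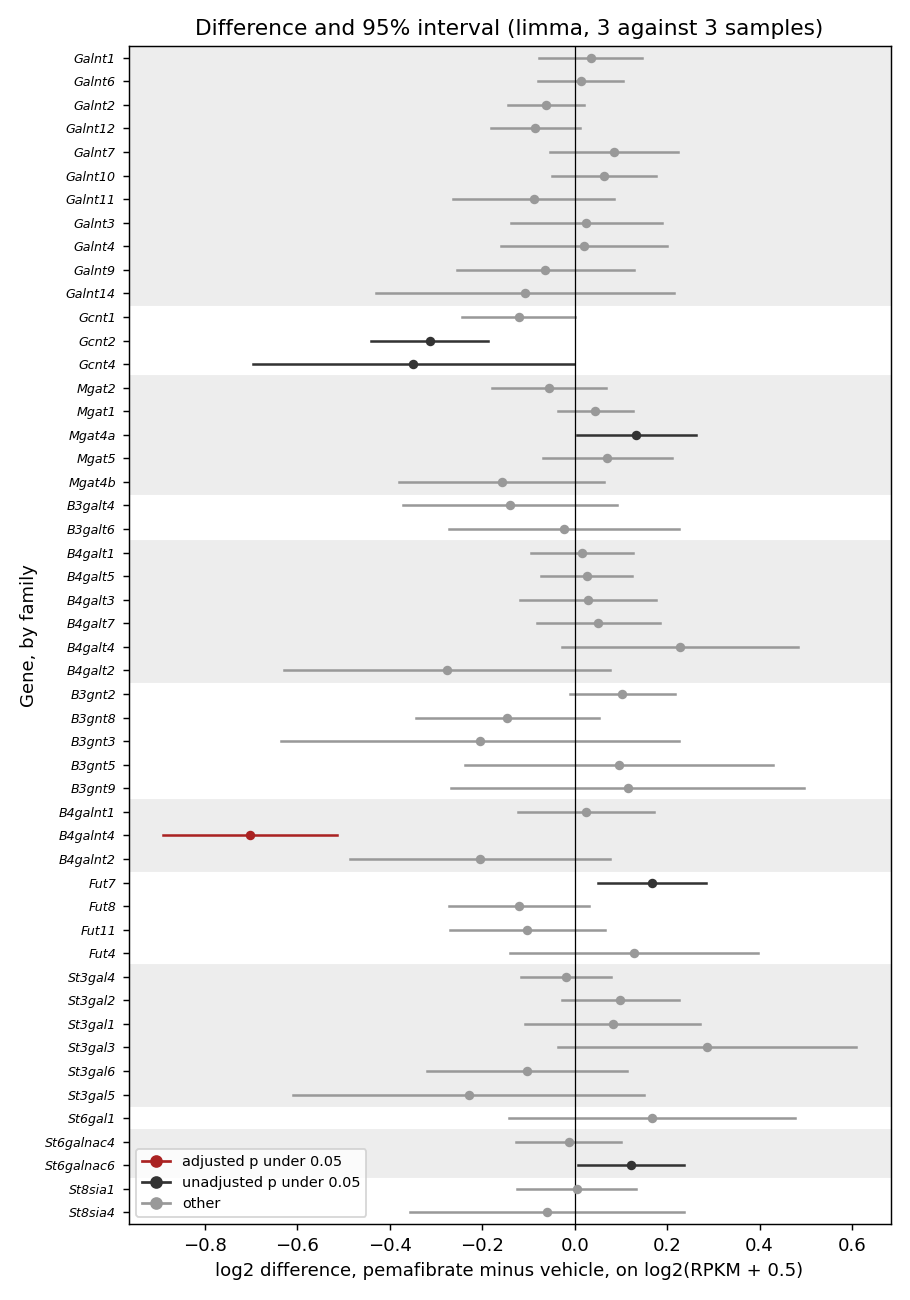
Log2 difference of each of the 50 tested genes, pemafibrate minus vehicle (horizontal axis, on log2(RPKM + 0.5)), with its 95% confidence interval from limma as a line, genes grouped by family on the vertical axis. Black marks an unadjusted p under 0.05 and grey the rest. B4galnt4 (red, adjusted p = 0.0290 by limma) is at -0.70, and the 3 Gcnt genes that passed the filter lie below 0, at -0.12 to -0.35.

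B4galnt4 encodes an N-acetylgalactosaminyltransferase that adds N-acetylgalactosamine to terminal N-acetylglucosamine, making the LacdiNAc unit in place of the usual galactose-containing one (chromosome 7, 141060978 to 141072400, GRCm38). It measured 9.32, 10.1 and 9.87 RPKM in vehicle 3, 4 and 7 and 5.20, 5.78 and 6.49 RPKM in pemafibrate 3, 7 and 8. All pemafibrate samples were well below all vehicle samples, on 524, 535 and 530 reads against 296, 268 and 356. The means were 9.76 ± 0.391 and 5.82 ± 0.646 RPKM (SD, n = 3 per group), a log2 difference of -0.70 ± 0.08 (SE; 95% interval -0.89 to -0.51), and limma gave an adjusted p of 0.0290. Voom, fitted to recovered reads, put the difference at -0.75 ± 0.08 (adjusted p = 0.00055). The log2 fold change listed for it in the authors' deposited table is -0.75, with 1.83e-09 as adjusted p. With limma the call was lost with no filter (adjusted p = 0.0984), with the title number as a block (0.137), and without vehicle 3 (adjusted p = 0.107), vehicle 4 (0.0995), vehicle 7 (0.0868) or pemafibrate 7 (0.150), while the log2 difference stayed between -0.78 and -0.63 without any one sample.

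The tested relatives of B4galnt4 were B4galnt1 and B4galnt2. B4galnt1 measured 50.8, 53.1 and 48.3 RPKM in vehicle 3, 4 and 7 and 47.5, 51.6 and 55.8 RPKM in pemafibrate 3, 7 and 8. The groups overlapped fully, with a log2 difference of 0.02 (95% interval -0.12 to 0.17) whose sign turned without vehicle 7 and without pemafibrate 8. B4galnt2, which makes the Sda blood group structure, was low. It measured 0.806 to 0.933 RPKM in vehicle and 0.637 to 0.735 RPKM in pemafibrate, without overlap (log2 difference -0.20, 95% interval -0.49 to 0.08). In GENCODE, 15.3% of its 1722 exonic bases are shared with the antisense transcript Gm11534, while the gene length behind its RPKM was 4086 bases. B4galnt1 shares 20.7% of its exonic bases in GENCODE with Slc26a10 on the opposite strand, and how the counting treated strand is not given in the sources used here.

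The genes whose profile over the 6 samples was most like that of B4galnt4 on log2(RPKM + 0.5), taken outside the 85, were Epha2, Il1r1, Rnft2, Egr1 and Abcb9, with Pearson r from 0.987 to 0.993. Those samples fall into 2 treatment groups and share their libraries, so these values describe the likeness of the profiles and carry no test. None of the 5 was called by limma itself, with adjusted p from 0.0573 (Egr1) to 0.521 (Rnft2). Il1r1, the interleukin 1 receptor gene, had means of 4.996 and 3.31 RPKM in vehicle and pemafibrate. Epha2 (0.737 and 0.362 RPKM) and Rnft2 (0.825 and 0.596 RPKM) lay near the filter of 0.5 RPKM.

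The GCNT enzymes add the branching N-acetylglucosamine to O-glycans and to poly-N-acetyllactosamine chains. The 5 Gcnt genes did not go one way. The 3 tested with limma lay below 0, with a median log2 difference of -0.31, where 5387 of 11360 tested genes lay below 0, and limma called 0 of them. Voom also tested the pair under the filter, Gcnt3 and Gcnt7, which lay above 0 (log2 differences 0.37 and 0.09, adjusted p = 0.670 and 0.962), and called Gcnt2 alone. Gcnt3 measured 0.283 to 0.326 RPKM in vehicle and 0.358 to 0.419 RPKM in pemafibrate, without overlap, on 22 to 33 reads a library. Summed over the 5 Gcnt rows the level was 20.6, 20.3 and 20.6 RPKM in vehicle 3, 4 and 7 and 18.2, 17.0 and 17.8 RPKM in pemafibrate 3, 7 and 8, that is 13.9% lower on average. Most of this came from Gcnt2, with means of 8.53 RPKM in vehicle and 6.76 RPKM in pemafibrate. Gcnt1 had means of 10.3 and 9.48 RPKM. The sum is therefore not a result separate from Gcnt2.

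Gcnt2 encodes the I-branching enzyme, which turns linear poly-N-acetyllactosamine into branched chains (chromosome 13, 40859768 to 40960892, GRCm38). It measured 8.40, 8.34 and 8.85 RPKM in vehicle 3, 4 and 7 and 6.98, 6.60 and 6.70 RPKM in pemafibrate 3, 7 and 8. The groups were tight and did not overlap. The log2 difference was -0.31 ± 0.05 (SE, 95% interval -0.44 to -0.19), with a limma adjusted p of 0.0721. It passed in 2 of 15 alternatives, voom (adjusted p = 0.00625) and limma with array weights (adjusted p = 0.0311). With limma the adjusted p was 0.163 with no filter and 0.641 with the title number as a block. Leaving out each sample gave limma adjusted p-values from 0.127 to 0.292. The authors' deposited table lists 0.000161 as its adjusted p. The gene table gives 1 value for Gcnt2, so its alternative first exons cannot be told apart. In GENCODE, 6.84% of its exonic bases are shared with an antisense transcript, A730081D07Rik.

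Gcnt1, the core 2 branching enzyme that builds the scaffold of P-selectin ligands on T cells, measured 10.6, 10.2 and 10.2 RPKM in vehicle 3, 4 and 7 and 9.90, 9.02 and 9.51 RPKM in pemafibrate 3, 7 and 8. Its groups did not overlap, but the log2 difference of -0.12 ± 0.05 was small (limma adjusted p = 0.521). Gcnt4, another core 2 enzyme, was less abundant. It measured 1.05, 1.15 and 0.862 RPKM in vehicle 3, 4 and 7 and 0.557, 0.657 and 0.878 RPKM in pemafibrate 3, 7 and 8, on 50 to 100 reads a library. Pemafibrate 8 lay above vehicle 7, and the log2 difference was -0.35 ± 0.15 (limma adjusted p = 0.516).

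**Figure D3:**
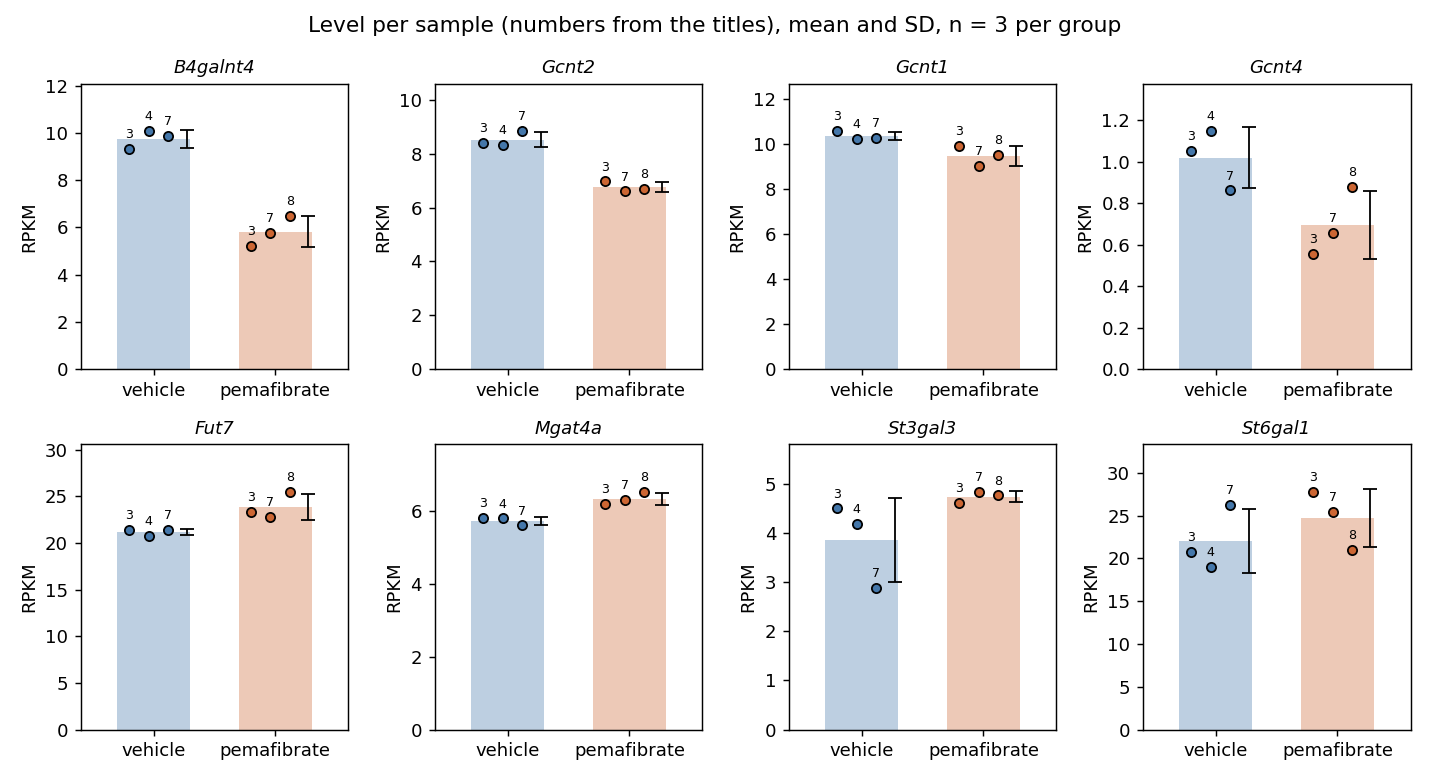
RPKM of 8 genes in each sample (points, with the sample's title number), the group mean (bars, from 0) and the SD (error bars, n = 3 per group). The pemafibrate points lie below all vehicle points for B4galnt4, Gcnt2 and Gcnt1 and above them for Fut7, Mgat4a and St3gal3, while those of Gcnt4 and St6gal1 overlap with vehicle.

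The genes of the GALNT enzymes, which start O-glycans, formed the family with the highest summed RNA level, taken over its 16 rows. The sum was 185.7 ± 1.31 RPKM in vehicle and 185 ± 2.62 RPKM in pemafibrate (SD, n = 3 each), and a sum also grows with the number of genes in a family. None of the 11 tested Galnt genes was called by limma or voom or had an unadjusted limma p under 0.05. Of them 6 were above 0 and 5 below, and log2 differences ran from -0.11 (Galnt14) to 0.09 (Galnt7). Galnt2, Galnt9 and Galnt12 were slightly lower without overlap, Galnt2 at 37.7 to 38.7 RPKM in vehicle and 36.2 to 37.4 RPKM in pemafibrate, Galnt12 at 19.8 to 20.5 and 18.4 to 19.5 RPKM, and Galnt9 at 2.24 to 2.47 and 2.15 to 2.22 RPKM. Galnt1 had a log2 difference of 0.03 (95% interval -0.08 to 0.15), Galnt6 of 0.01 (-0.08 to 0.10) and Galnt3 of 0.03 (-0.14 to 0.19), and the sign of Galnt3 turned with array weights and without pemafibrate 3. In GENCODE, Galnt2 shares 90% of its 4282 exonic bases with the overlapping model Gm20388. The gene length behind its RPKM was 4111 bases, and whether that model was part of the counting is not known.

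The MGAT enzymes set how many branches an N-glycan carries. Of 5 tested Mgat genes limma and voom called 0, and 1 had an unadjusted limma p under 0.05. Mgat4a, which adds a branch to the mannose core, measured 5.81, 5.81 and 5.61 RPKM in vehicle 3, 4 and 7 and 6.21, 6.31 and 6.54 RPKM in pemafibrate 3, 7 and 8. The pemafibrate samples were all higher, by a log2 difference of 0.13 ± 0.06 (limma adjusted p = 0.506). Its isoenzyme gene Mgat4b had means of 2.96 ± 0.204 and 2.61 ± 0.274 RPKM, with overlap. Mgat1, needed for every hybrid and complex N-glycan, had means of 33.0 ± 0.607 and 34.0 ± 0.197 RPKM, with a log2 difference of 0.04 (95% interval -0.04 to 0.13). Mgat2 measured 36.5 ± 2.39 and 35.1 ± 0.893 RPKM (log2 difference -0.05, 95% interval -0.18 to 0.07). Mgat5, whose product makes the branch that binds galectins most avidly, measured 5.34 ± 0.159 and 5.63 ± 0.193 RPKM (0.07, 95% interval -0.07 to 0.21).

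Among the enzymes that lengthen branches, limma and voom called 0 of 2 tested B3galt, 0 of 6 B4galt and 0 of 5 B3gnt genes, and none had an unadjusted limma p under 0.05. B4galt1 measured 98.4, 95.7 and 102 RPKM in vehicle 3, 4 and 7 and 106, 98.4 and 95.6 RPKM in pemafibrate 3, 7 and 8. These values interleave, and the 95% interval of its log2 difference was -0.09 to 0.13, with a sign that turned without vehicle 4 and without pemafibrate 3. B4galt5, the lactosylceramide synthase, was also within a narrow interval (-0.07 to 0.12), at 18.4 to 19.7 RPKM over all samples. B3gnt2, the main poly-N-acetyllactosamine synthase, measured 28.2, 26.8 and 25.9 RPKM in vehicle 3, 4 and 7 and 28.3, 30.4 and 28.3 RPKM in pemafibrate 3, 7 and 8. The pemafibrate samples were just above the vehicle ones (0.10 ± 0.05 on the log2 scale, adjusted p = 0.584 by limma). In GENCODE, 58.6% of the 4180 exonic bases of B3gnt2 are shared with the model Gm28048, while the gene length behind its RPKM was 2818 bases. B4galt4 was low, at 1.14 to 1.21 RPKM in vehicle and 1.32 to 1.66 RPKM in pemafibrate (0.23 ± 0.11 on the log2 scale, adjusted p = 0.589 by limma). B3galt4, which makes GM1 ganglioside, had a log2 difference of -0.14 (95% interval -0.37 to 0.09), and B3gnt5, which starts lacto-series glycolipids, one of 0.10 (-0.24 to 0.43).

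Fucosyltransferase genes were led by Fut7, which adds the fucose of sialyl Lewis x, the structure that selectins bind. Fut7 (chromosome 2, 25422351 to 25426374, GRCm38) measured 21.4, 20.8 and 21.4 RPKM in vehicle 3, 4 and 7 and 23.3, 22.8 and 25.5 RPKM in pemafibrate 3, 7 and 8. Each pemafibrate sample was above each vehicle sample, by a log2 difference of 0.17 ± 0.05 (95% interval 0.05 to 0.28), a size that missed the threshold with limma (adjusted p = 0.312) and with voom (adjusted p = 0.272). Fut4, which can also build Lewis x structures, measured 0.962 to 1.13 RPKM in vehicle and 1.05 to 1.28 RPKM in pemafibrate. Fut8, the core fucosyltransferase of N-glycans, was lower without overlap, at 4.86 to 5.45 against 4.64 to 4.76 RPKM (-0.12 ± 0.07 on the log2 scale, adjusted p = 0.657 by limma). Of the 4 tested Fut genes limma and voom called 0, and 1, Fut7, had an unadjusted limma p under 0.05.

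Among the sialyltransferases limma and voom called none of the 11 tested genes, and 1, St6galnac6, had an unadjusted limma p under 0.05. St6galnac6, which adds sialic acid to gangliosides and related chains, measured 16.4, 15.7 and 15.3 RPKM in vehicle 3, 4 and 7 and 16.6, 17.1 and 18.005 RPKM in pemafibrate 3, 7 and 8. The groups nearly touched, and the log2 difference was 0.12 ± 0.05 (limma adjusted p = 0.491). St6galnac4 measured 19.97 ± 0.925 and 19.8 ± 0.615 RPKM, a log2 difference of -0.01 (95% interval -0.13 to 0.10) whose sign turned without vehicle 7 and without pemafibrate 8.

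St3gal3, which sialylates galactose at the ends of N-glycan branches, measured 4.49, 4.18 and 2.88 RPKM in vehicle 3, 4 and 7 and 4.61, 4.83 and 4.76 RPKM in pemafibrate 3, 7 and 8. Vehicle 7 alone was far below the rest: without it the log2 difference was 0.11, and with it 0.29 ± 0.14 (limma adjusted p = 0.592). St3gal4 had the highest level of its family, at 28.4 to 30.4 RPKM over the 6 samples. Its log2 difference was -0.02 (95% interval -0.12 to 0.08), with a sign that turned without pemafibrate 3. In GENCODE, 14.1% of its 2923 exonic bases lie under an opposite-strand transcript, while the gene length behind its RPKM was 2029 bases. St3gal1, which caps core 1 O-glycans, had a log2 difference of 0.08 (-0.11 to 0.27), St3gal2 one of 0.10 (-0.03 to 0.22) and St3gal6 one of -0.10 (-0.32 to 0.11). St3gal5, the GM3 ganglioside synthase, lay near the detection filter, at 0.566 to 0.653 RPKM in vehicle and 0.311 to 0.623 RPKM in pemafibrate.

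St6gal1, which adds the sialic acid that CD22 recognizes on N-glycans, varied more between samples of one group than nearly all other members, with a within-group SD of 0.22 on the log2 scale. It measured 20.8, 19.0 and 26.3 RPKM in vehicle 3, 4 and 7 and 27.8, 25.4 and 21.004 RPKM in pemafibrate 3, 7 and 8. Vehicle 7, pemafibrate 3 and pemafibrate 7 were high and the others low, so the groups overlapped and the spread did not follow treatment (0.17 ± 0.13 on the log2 scale, adjusted p = 0.788 by limma). The polysialyltransferase gene St8sia4 was lowest in vehicle 7 and pemafibrate 3, at 3.31 and 3.36 RPKM, against 3.88 to 4.67 RPKM in the other samples. Its log2 difference was -0.06, and it turned sign without vehicle 4 and without pemafibrate 3. St8sia1, the GD3 ganglioside synthase, measured 7.48 ± 0.338 and 7.50 ± 0.072 RPKM (0.0040, 95% interval -0.12 to 0.13), and its sign turned with array weights, without vehicle 7 and without pemafibrate 7.

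Other genes of glycan synthesis and recognition were taken from 8 lists with 134 entries, of which 105 genes were tested. Limma and voom called 0 of them, with an unadjusted limma p under 0.05 for 4 higher and 6 lower genes, close to the shares over all tested genes (4.76% and 4.9%), and a median log2 difference of -0.0010. Of the 105 genes 55 lay below 0, against 5387 of all 11360. In the list of core O-glycan genes and other glycosyltransferases, which also holds the prolyl hydroxylase gene Ogfod1 (-0.15), 0 of 15 passed, and 10 lay below 0. C1galt1, the core 1 synthase that makes the substrate of Gcnt1, measured 19.2, 16.8 and 19.2 RPKM in vehicle 3, 4 and 7 and 15.3, 15.2 and 15.3 RPKM in pemafibrate 3, 7 and 8. The pemafibrate samples were all lower (log2 difference -0.26 ± 0.06), with a limma adjusted p of 0.153, a voom adjusted p of 0.0802 while the authors' deposited table lists 0.0278.

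Of 18 tested genes of oligosaccharide transfer and N-glycan trimming 0 passed and 13 lay below 0, against 5387 of all 11360 tested genes. Among the 13 were the mannosidase genes Man1a2, Man2a2 and Man1a. Their log2 differences were -0.13 for Man1a2, -0.15 for Man2a2 (-0.096 without pemafibrate 3) and -0.15 for Man1a (-0.086 without vehicle 4 and -0.24 without vehicle 7). In nucleotide sugar supply 0 of 26 passed. Uap1, which makes UDP-N-acetylglucosamine, the donor for MGAT and GCNT enzymes, measured 19.96 ± 1.52 and 23.0 ± 2.11 RPKM with overlap (0.20 ± 0.08 on the log2 scale, adjusted p = 0.482 by limma), and Gmppa and Ugdh had log2 differences of -0.10 and 0.15 (Ugdh 0.072 without pemafibrate 3). Of 14 sugar transporter genes and 16 sialidase and lysosomal genes none passed or had an unadjusted limma p under 0.05. The smallest p-values there belonged to the transporter genes Slc35d2, Slc35d1 and Slc35b4 and to the glycosidase genes Glb1, Engase and Neu1. Each of their differences moved by more than 1.5 times when 1 sample was left out: Slc35d2 from 0.16 to 0.092 without vehicle 4, Slc35d1 from -0.09 to -0.037 without pemafibrate 7, and Slc35b4 from 0.06 to 0.025 without vehicle 3. Glb1 moved from 0.10 to 0.029 without vehicle 7, Engase from 0.09 to 0.015 without vehicle 3, and Neu1 from 0.09 to -0.0019 without vehicle 7.

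Galectin genes, which encode lectins that bind N-acetyllactosamine, had 5 of 6 tested members above 0, where 5973 of all 11360 tested genes lay above 0. Of the 6, 0 were called, and their median log2 difference was 0.14. Lgals3 measured 39.3, 43.7 and 35.8 RPKM in vehicle 3, 4 and 7 and 46.5, 46.6 and 44.0 RPKM in pemafibrate 3, 7 and 8, without overlap (0.21 ± 0.07 on the log2 scale, adjusted p = 0.381 by limma). Lgals1 was far more abundant, at 2038 ± 72.3 and 2173 ± 70.4 RPKM, a log2 difference of 0.09 with adjusted p = 0.678 by limma. Lgals4 was low, with means of 1.14 and 0.660 RPKM (-0.49 ± 0.13 on the log2 scale, adjusted p = 0.222 by limma).

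In the list of selectins, their ligand scaffolds and sulfotransferases 0 of 9 tested genes passed. Chst2, a sulfotransferase for N-acetylglucosamine, was lower in all pemafibrate samples, at 8.60 to 10.6 RPKM in vehicle and 7.86 to 8.22 RPKM in pemafibrate. Its log2 difference was -0.27 ± 0.08. Limma gave it an adjusted p of 0.291, and the authors' deposited table lists 0.00304. Tpst2, which sulfates tyrosines of the P-selectin ligand, differed by 0.16 on the log2 scale (adjusted p = 0.462 by limma), and by 0.099 without pemafibrate 8. Of 9 sialic acid binding receptors 1 was tested, Cd33, with means of 0.791 and 0.637 RPKM.

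**Figure D4:**
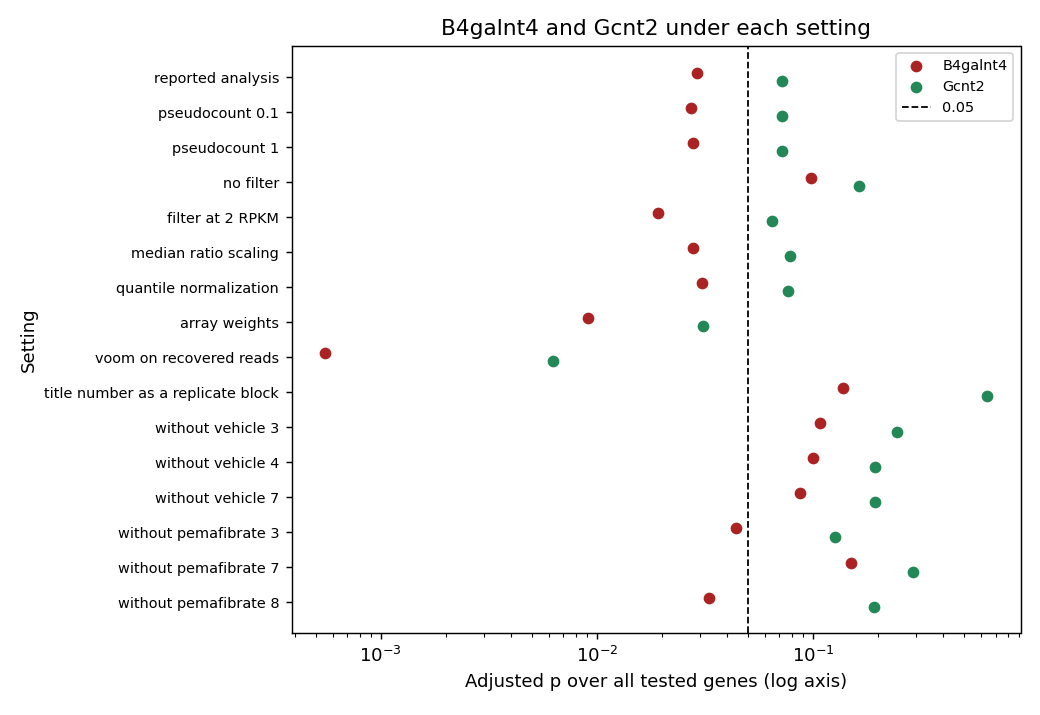
Adjusted p over all tested genes (horizontal log axis) of B4galnt4 (red) and Gcnt2 (green) under each setting (vertical axis), with the threshold of 0.05 as a dashed line. B4galnt4 lies below 0.05 in the reported analysis and in 9 of 15 alternatives and ranges from 0.00055 to 0.150, while Gcnt2 lies below it in 2 of 15 and ranges from 0.00625 to 0.641.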

How the data were processed

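Stranded mRNA libraries (TruSeq, 1.0 µg of RNA each) of 6 samples were sequenced, according to the labels. Trimmomatic 0.35, HISAT2 2.1.0, featureCounts 1.4.6, bcl2fastq and edgeR are named in the submitters' processing notes, with builds GRCm38 and mm10. How strand was counted, and on which annotation, is not given in the sources used here. How reads in overlapping genes were counted is therefore not known. The authors deposited RPKM per gene beside a log2 fold change, a p-value, its adjusted form and a rank; the rank was not used.

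RPKM values were whole multiples of the value of 1 read, and 100% of nonzero values gave whole reads (tolerance 1e-05 reads); where a gene's reads shared a factor, the smallest multiple giving a whole gene length was taken. Library sizes of 14935351 to 18322467 reads followed. Tests were run for genes averaging 0.5 RPKM or more, on log2(RPKM + 0.5) with limma 3.58.1 (trend) in R 4.3.3, pemafibrate against vehicle, with Benjamini-Hochberg adjustment over all 11360 genes; this scale understates changes of low genes. The procedure was run on simulated data with independent samples and the same dispersion setting for every gene, which does not show how it behaves on these data. Because the unit is RPKM, no count model was used, and voom on recovered reads (mean of at least 10) was an alternative, beside other pseudocounts, filters, scalings, sample weights, a block and leaving out each sample.

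The members and lists were chosen with earlier results of these data known, so no list was tested as a whole. Genes are named with values if their adjusted or unadjusted p was under 0.05, if they lead a family, if they are in a panel of T cell glycosyltransferases or, for each list, if they have one of the 3 smallest p. One listed gene that met this rule is not reported here. Other members named, those without group overlap or in the list of rows under the filter, were chosen after their values were seen. Positions and upstream sequences are from RefSeq (GRCm38.p6), which matched all 85 symbols by name and 61 with a sequence. Exon overlaps are from GENCODE M21 (GRCm38), whose exonic lengths can differ from the gene lengths recovered from the RPKM values (for B3gnt2 4180 and 2818 bases). The overlap shares may therefore not be those of the genes as counted. Plots used Python 3.11.15 with matplotlib 3.10.9.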

Additional observations from a re-analysis of the deposited data

How the results depend on the processing

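The count of called members was 1 in the reported analysis and in 5 settings that kept all samples. It was 0 with no filter (71 members tested), 2 with array weights and 2 with voom on recovered reads, where the second gene was Gcnt2, and from 0 to 1 when each sample was left out. Over all genes the count was 40 in the reported analysis, 7 with no filter, 140 with array weights, 148 with voom and from 0 to 25 when each sample was left out. The glycan lists had 0 calls in all 15 alternatives. With the title number as a replicate block, 0 members and 0 genes in all passed (653 at an unadjusted p under 0.05), and B4galnt4 had a log2 difference of -0.75. Only the numbers 3 and 7 occur in both groups, and the labels do not say whether they pair samples. Their samples' deviations from the group means had correlations of 0.030 and -0.0083. With so few shared numbers these values cannot decide whether such samples share an animal or culture.

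Of 53 named genes under 15 alternatives (788 values), 765 kept direction and side of the threshold. Signs turned in 15, all for genes far from the threshold: with array weights for Galnt3 (-0.0043) and St8sia1 (-0.0085), and in the ranges over leaving out each sample for B4galnt1 (-0.033 to 0.082), B4galt1 (-0.025 to 0.048), Galnt3 (-0.00061 to 0.068), Neu1 (-0.0019 to 0.19), St3gal4 (-0.044 to 0.0034), St6galnac4 (-0.038 to 0.024), St8sia1 (-0.030 to 0.030) and St8sia4 (-0.18 to 0.041). The cause of these changes was not tested, except that leaving out a sample or the filter changes the number of samples or genes tested. Depth limits the low genes most: St3gal5 rested on 14 to 29 reads a library.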
